A study of Mus musculus with 6 samples.

Results

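The genes of cholesterol and fatty acid synthesis were followed in mouse aortic endothelial cells (EC) that overexpressed the transcription factor Meis1. Members were taken by gene symbol from a table of 54429 genes, and all 32 were found there and passed the filter on low counts. They comprised 21 genes of the sterol branch and 11 of the fatty acid branch. Commercial primary aortic EC of adult wild-type C57BL/6 mice, 100000 per well, were exposed for 48 h to a Meis1-OE vector or to a YFP-CTRL vector, and YFP+CD31+VEC+ cells were sorted at 72 h, grown to confluency and harvested. Each condition had 3 RNA-seq libraries, carried as A, B and C in the table, and values of a condition are given in that order. Cells of both conditions had therefore been through transduction, the same sort and regrowth. Each library is RNA of a mixed culture, so fewer expressing cells and less RNA per cell cannot be told apart.

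Cholesterol is built from acetyl-CoA through mevalonate, squalene and lanosterol, in a chain of enzymes of the cytosol and the endoplasmic reticulum. Saturated fatty acids are built from the same acetyl-CoA by acetyl-CoA carboxylase and fatty acid synthase, then lengthened by elongases and given double bonds by desaturases. Most of these genes are known targets of the SREBP factors, membrane-bound transcription factors that are cut and sent to the nucleus when sterols in the endoplasmic reticulum are low. EC use these lipids for membranes, and dividing cells make more of them.

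Library totals ran from 34176642 to 47956605 counts. Meis1 itself was at 2961 to 3477 counts per 1000000 (CPM, with libraries scaled by the TMM method) in the Meis1-OE libraries and at 1.15 to 1.87 CPM in the YFP-CTRL libraries, which matches the labels of all 6. The 6 endothelial markers summed to 2825 to 3599 CPM in Meis1-OE and 3961 to 5588 CPM in YFP-CTRL, and 1 of them, the angiopoietin receptor gene Tek, was called lower in Meis1-OE. In 3 of the 6 (Tek, Kdr and Cdh5) all Meis1-OE libraries lay below all YFP-CTRL libraries, as in 15.9% of all genes tested. Kdr and Cdh5 had adjusted p of 0.0504 and 0.0535 by edgeR, and of 0.00134 and 0.00952 by DESeq2. The 5 markers of adipocytes, a cell type rich in these enzymes, summed to 0.353 to 0.678 CPM in Meis1-OE and 0.123 to 0.177 CPM in YFP-CTRL, with Cidec and Lep at 0 throughout. The 1 adipocyte marker with enough counts to be tested, the lipid droplet coat gene Plin4, was called higher in Meis1-OE on 27, 15 and 15 counts against 4, 5 and 5. The 5 smooth muscle markers summed to 1.75 to 4.0 CPM in Meis1-OE and to 0.559, 2.40 and 20.9 CPM in YFP-CTRL, most of the last from Acta2. Of these markers Des, on 20, 18 and 24 counts against 0, 2 and 2, was called higher. The 5 fibroblast markers summed to 11.9 to 12 CPM in Meis1-OE and 15.8 to 49.5 CPM in YFP-CTRL, with Lum at 0. Nearly all of that sum came from Pdgfra, at 11.7 to 11.9 CPM in Meis1-OE and 15.6 to 49.1 CPM in YFP-CTRL. The 5 macrophage markers summed to 0.175 to 0.881 CPM in Meis1-OE and 0.221 to 0.353 CPM in YFP-CTRL, with C1qa, C1qb and Tyrobp at 0. The part of these other cell types in the results was not tested. YFP-CTRL library C stood apart from A and B, over all genes tested as well as in cell division genes. Its log2 CPM had a Pearson correlation of 0.967 with A and 0.982 with B, while A and B correlated at 0.987. With Meis1-OE libraries A, B and C it correlated at 0.986, 0.983 and 0.983. The 15 S and G2/M phase genes summed to 533, 860 and 2079 CPM in YFP-CTRL and to 2133 to 2181 CPM in Meis1-OE. Results that rest on library C are therefore given with and without it.

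Of the 11 fatty acid branch genes, 3 were called higher in Meis1-OE EC and 0 lower by edgeR's quasi-likelihood test at a Benjamini-Hochberg adjusted p of 0.05. Across all 16065 genes tested, 4.14% were called higher (665) and 2.73% lower (438), a split that moved to 1048 and 180 with libraries scaled to their totals. The 3 were the desaturases Scd1 and Scd2 and the acetate-activating enzyme Acss2, each about 3-fold higher. Of the 21 sterol branch genes, 0 were called in either direction. An unadjusted p under 0.05 by edgeR was found for 9 of them, all higher, and for 4205 of all 16065 genes, in either direction. DESeq2's Wald test called 6 sterol branch genes higher, as it did 6.18% of all genes. Fold changes were above 0 for 20 of the 21 sterol genes and 10 of the 11 fatty acid genes, against 50.9% of all genes. The median log2 fold change was 0.53 over the sterol branch and 0.28 over the fatty acid branch, against 0.01 over all genes.

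The groups did not overlap, with all 3 Meis1-OE libraries above all 3 YFP-CTRL libraries, for 4 sterol branch genes (Acat2, Sqle, Ebp and Stard4) and 4 fatty acid branch genes (Acss2, Scd1, Scd2 and Lpin1). Such separation upward was found for 17.2% of all genes tested and separation downward for 15.9%. In the downward direction it was found for 0 members. The upward share was 19.0% in the sterol branch and 36.4% in the fatty acid branch. It was 33.3% in the S and G2/M genes. In the lists of other lipid genes described below it was 55.6% of 9 fatty acid oxidation, 40% of 5 sterol export and 33.3% of 6 SREBP processing genes. It was 25% of 12 fatty acid supply genes, 16.7% of 6 other sterol and isoprenoid enzymes and 0% of 6 fatty acid uptake genes. Separation downward was found in these lists too. It held for 2 fatty acid supply genes and for 1 gene each of sterol export, SREBP processing and uptake. In oxidation and among the other sterol and isoprenoid enzymes it was found for 0 genes.

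**Figure D1:**
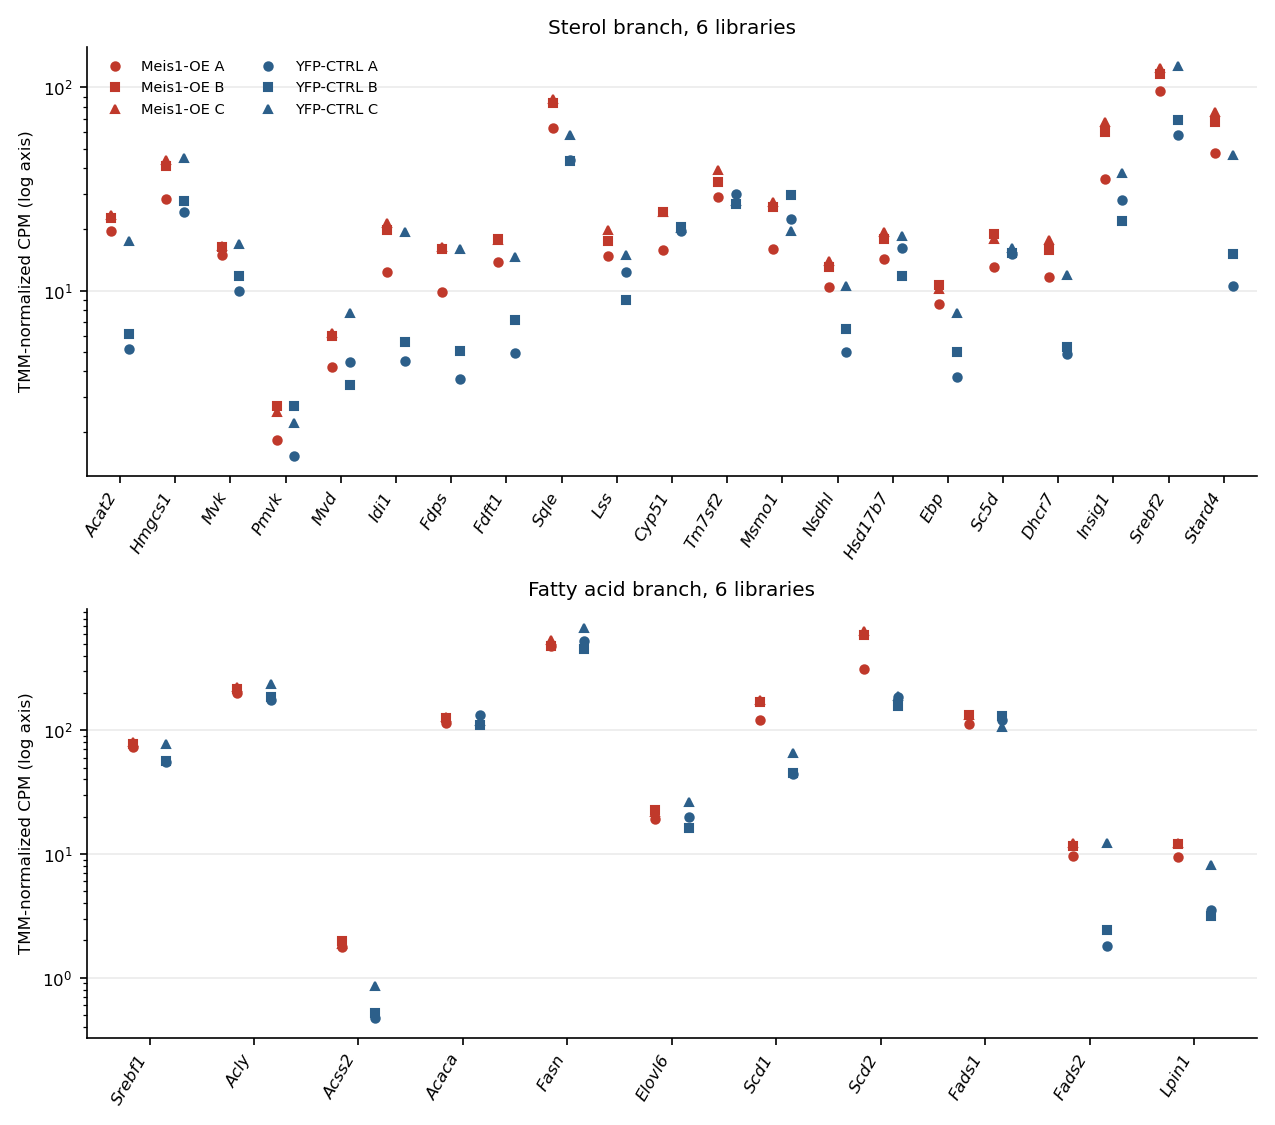
TMM-normalized CPM (log axis) of the 32 members in each of the 6 libraries, sterol branch and fatty acid branch in separate panels. Scd1, Scd2, Acss2 and Lpin1 are the fatty acid genes whose Meis1-OE points all lie above the YFP-CTRL points.

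Scd1 and Scd2 encode stearoyl-CoA desaturases, which put the first double bond into saturated fatty acids and so make oleate and palmitoleate. The genes are neighbours, Scd2 at chr19:44293676-44306864 and Scd1 at chr19:44394450-44407709 (RefSeq, GRCm38.p6). Scd1 was at 122, 170 and 177 CPM in Meis1-OE against 44.5, 45.2 and 65.6 CPM in YFP-CTRL. The groups were well apart, the lowest Meis1-OE library being 1.86 times the highest control. The mean was 156 ± 29.8 against 51.8 ± 12 CPM (SD, n = 3), a log2 fold change of 1.59 ± 0.21 (SE, adjusted p = 0.00956 by edgeR).

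Scd2 had 311, 586 and 640 CPM in Meis1-OE and 185, 157 and 189 CPM in YFP-CTRL. Its Meis1-OE library A sat nearer the controls than B and C did, yet was 1.64 times the highest control. The mean was 512 ± 176 against 177 ± 17.4 CPM (SD, n = 3), a log2 fold change of 1.53 ± 0.26 (SE, adjusted p = 0.0201 by edgeR). Estimated counts of the pair were not whole in 5 of 6 libraries, as an estimator gives where reads are shared out among similar sequences. Their sum, which does not depend on sharing between the pair, was 433, 756 and 816 CPM against 229, 202 and 255 CPM, again without overlap.

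Acss2, the cytosolic and nuclear enzyme that turns acetate into acetyl-CoA, lies at chr2:155518043-155562743. It was at 1.77, 1.96 and 1.86 CPM in Meis1-OE (81, 89 and 86 counts) and 0.471, 0.515 and 0.858 CPM in YFP-CTRL (16, 21 and 39 counts). The lowest Meis1-OE library was 2.06 times the highest control. The log2 fold change was 1.58 ± 0.30 (SE, adjusted p = 0.0265 by edgeR). All 3 genes were also called by DESeq2, with adjusted p of 3.34e-09 for Scd1, 2.94e-06 for Scd2 and 0.000373 for Acss2.

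The calls of these 3 genes depended on some of the libraries. With edgeR, Scd1 missed the threshold without Meis1-OE library B (adjusted p = 0.0583), Meis1-OE library C (0.0555) or YFP-CTRL library B (0.0515). Scd2 missed it without the same libraries (0.0991, 0.0881 and 0.0945). Acss2 missed it without Meis1-OE library A (0.0831), B (0.147) or C (0.125) or YFP-CTRL library B (0.108). All 3 remained called without YFP-CTRL library A. Without YFP-CTRL library C, the library with high cell division genes, they also remained called, and their log2 fold changes were 1.79 for Scd1, 1.57 for Scd2 and 1.90 for Acss2.

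The DNA just upstream of Acss2 is shown because it carries 2 copies of the TGACAG core that Meis factors are known to bind. It is the 250 bases before the start site, from RefSeq on GRCm38.p6, chr2:155517793-155518042 on the + strand, written 5′ to 3′. Capitals mark, on either strand, TGACAG at -230 and -203, the NF-Y box CCAAT at -73 and the Sp1 box GGGCGG at -241, -140, -102 and -37, counted back from the start site to the first base of each match.
Acss2: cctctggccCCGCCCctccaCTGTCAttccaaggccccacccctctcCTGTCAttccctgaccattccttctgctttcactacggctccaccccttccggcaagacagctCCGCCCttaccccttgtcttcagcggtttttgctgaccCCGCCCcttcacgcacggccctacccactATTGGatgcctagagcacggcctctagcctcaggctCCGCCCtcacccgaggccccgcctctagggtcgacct
The TGACAG core was found in the upstream windows of 5 of the 25 members with a sequence (Acat2, Acss2, Dhcr7, Pmvk and Srebf1) and in 15.9% of 32851 such windows genome-wide. Dhcr7 and Srebf1 have 3 windows each and Pmvk 2, and a member was counted where any of its windows held the letters. None of the motifs searched is contained in another. A letter match in this window is a description of the sequence and not a measured binding site.

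Among the other fatty acid genes, Lpin1, a phosphatidate phosphatase of glycerolipid synthesis, came nearest to a call. It was at 9.41, 12.1 and 12.4 CPM in Meis1-OE and 3.53, 3.14 and 8.14 CPM in YFP-CTRL, without overlap and with control library C far above A and B. The log2 fold change of 1.19 ± 0.37 (SE) had an adjusted p of 0.0991 by edgeR and 0.0155 by DESeq2. Fads2, which starts the desaturation of polyunsaturated fatty acids, was at 9.54, 11.7 and 12.2 CPM in Meis1-OE and at 1.80, 2.43 and 12.2 CPM in YFP-CTRL. Control library C was thus level with the Meis1-OE libraries and 5.79 times the mean of A and B, and the log2 fold change of 1.02 ± 0.66 (SE) was not called (adjusted p = 0.370). Without that library the value was 2.38 (adjusted p = 0.000933). Srebf1, which encodes the SREBP factor tied mainly to fatty acid genes, was at 73.1, 77.5 and 80.1 CPM against 55.2, 56.2 and 78.0 CPM, a log2 fold change of 0.28 ± 0.16 (SE, adjusted p = 0.291), and 0.45 without control library C (adjusted p = 0.00782).

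The core of fatty acid synthesis showed no called difference, and its fold changes were small. Fasn, the synthase itself, was at 479, 477 and 537 CPM in Meis1-OE and 527, 455 and 666 CPM in YFP-CTRL, with a log2 fold change of -0.14 ± 0.16 (SE, adjusted p = 0.599). Its groups overlapped, and it was the 1 fatty acid gene with a negative value, which was 0.0081 without control library C. Acly, which splits citrate to acetyl-CoA, was at 201 to 225 CPM against 176 to 236 CPM (log2 fold change 0.10 ± 0.14, SE). Acaca, the carboxylase that makes malonyl-CoA, was at 114 to 129 against 111 to 132 CPM (0.03 ± 0.11), and Elovl6, an elongase, at 19.2 to 22.5 against 16.3 to 26.5 CPM (0.02 ± 0.19). Fads1, a desaturase of polyunsaturated fatty acids, was at 112 to 133 against 107 to 131 CPM (0.07 ± 0.13).

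**Figure D2:**
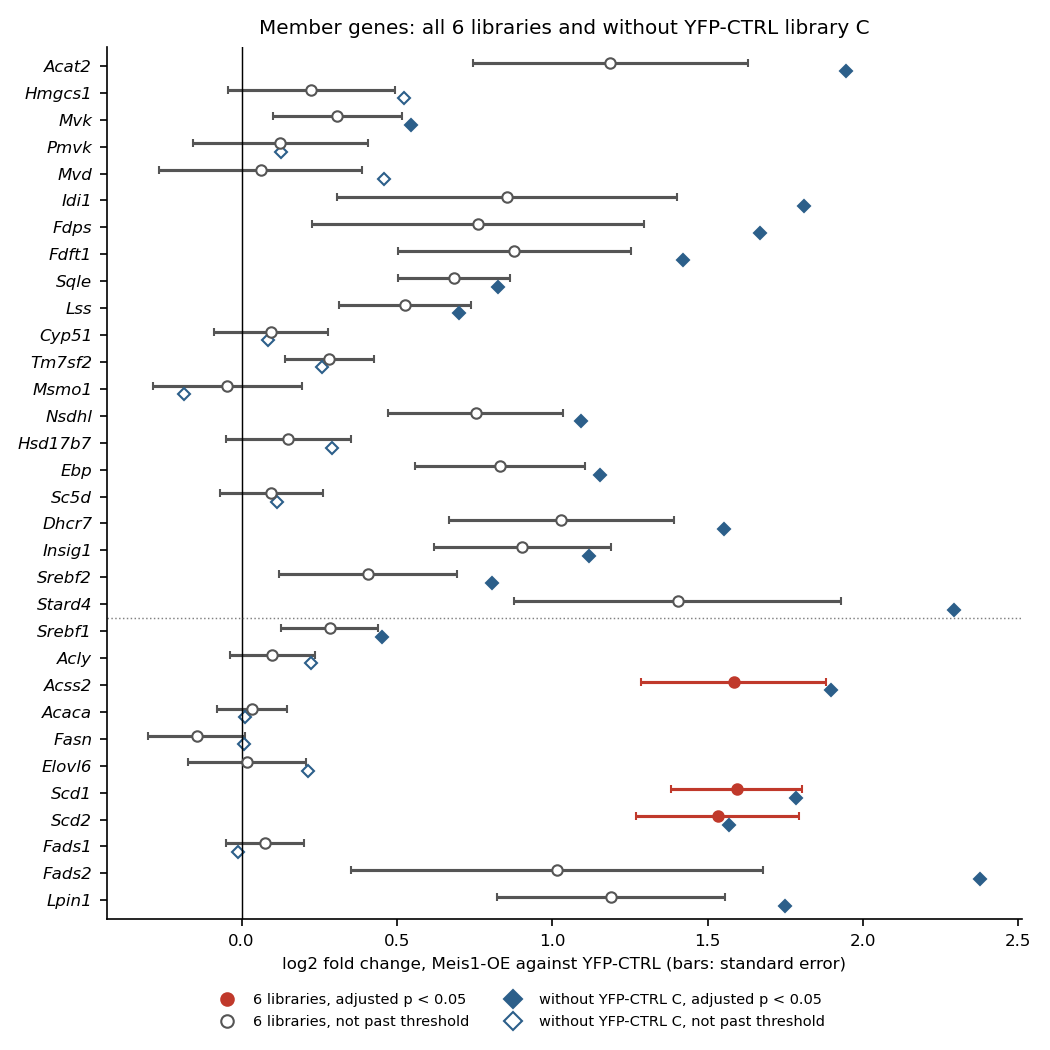
Log2 fold change of each member, Meis1-OE against YFP-CTRL, with all 6 libraries and without YFP-CTRL library C (x axis, log2 units; circles with bars, 6 libraries with the standard error; diamonds, without library C; filled symbols, adjusted p under 0.05 by edgeR; the dotted line parts the sterol branch, above, from the fatty acid branch). Leaving out that library moves most sterol genes, Fads2 and Lpin1 to the right and leaves Fasn, Acaca and Fads1 near 0.

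In the sterol branch, the first enzymes lead from acetyl-CoA to farnesyl diphosphate. For Acat2, Idi1, Fdps, Mvk and Hmgcs1 among them, all Meis1-OE libraries lay above control libraries A and B. Library C was the highest control in each. Acat2, the thiolase that joins 2 molecules of acetyl-CoA, was at 19.6, 22.7 and 23.6 CPM in Meis1-OE and 5.18, 6.10 and 17.6 CPM in YFP-CTRL. All 3 Meis1-OE libraries lay above control library C, by a small margin, and the log2 fold change of 1.19 ± 0.44 (SE) was not called by edgeR (adjusted p = 0.147) and was called by DESeq2 (adjusted p = 0.0427). Idi1, the isomerase that makes dimethylallyl diphosphate, was at 12.3, 19.8 and 21.4 CPM against 4.47, 5.56 and 19.5 CPM (log2 fold change 0.85 ± 0.55, SE, adjusted p = 0.361). Fdps, farnesyl diphosphate synthase, was at 9.82, 16.0 and 16.4 CPM against 3.65, 5.05 and 16.1 CPM (0.76 ± 0.53, adjusted p = 0.403). In both genes control library C fell among the Meis1-OE values, at 3.88 and 3.70 times the mean of A and B.

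Hmgcs1, HMG-CoA synthase, was at 28.1, 41.0 and 44.0 CPM in Meis1-OE and 24.3, 27.6 and 44.9 CPM in YFP-CTRL (log2 fold change 0.23 ± 0.27, SE, adjusted p = 0.636). Its groups overlapped. Mvk, mevalonate kinase, was at 15 to 16.5 CPM against 9.98, 11.7 and 17.0 CPM (0.31 ± 0.21, adjusted p = 0.383). The later kinase Pmvk, at 1.84 to 2.69 CPM against 1.53 to 2.70 CPM (0.13 ± 0.28), and the decarboxylase Mvd, at 4.18 to 6.18 CPM against 3.41 to 7.75 CPM (0.06 ± 0.33), overlapped between groups.

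The upstream windows of Hmgcs1, Acat2 and Ebp are shown because Hmgcs1 holds the 1 match to the sterol regulatory element TCACNCCAC among the members, and Acat2 and Ebp were among the sterol genes without overlap. Each is the 250 bases before the start site in RefSeq, GRCm38.p6, 5′ to 3′ on the gene's strand. They lie at chr13:119690101-119690350 (+) for Hmgcs1, chr17:12960726-12960975 (-) for Acat2 and chrX:8193513-8193762 (-) for Ebp. Capitals mark matches on either strand. In Hmgcs1 these are the sterol regulatory element at -137, NF-Y boxes at -237, -176 and -45 and Sp1 boxes at -92 and -24. In Acat2 they are an Sp1 box at -33 and TGACAG at -14, and in Ebp NF-Y boxes at -170 and -55 and an Sp1 box at -33.
Hmgcs1: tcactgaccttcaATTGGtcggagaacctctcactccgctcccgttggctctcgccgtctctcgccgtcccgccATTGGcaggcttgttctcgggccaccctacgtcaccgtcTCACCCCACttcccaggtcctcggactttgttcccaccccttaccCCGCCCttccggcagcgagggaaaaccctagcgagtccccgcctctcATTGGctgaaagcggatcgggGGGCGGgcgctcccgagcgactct
Acat2: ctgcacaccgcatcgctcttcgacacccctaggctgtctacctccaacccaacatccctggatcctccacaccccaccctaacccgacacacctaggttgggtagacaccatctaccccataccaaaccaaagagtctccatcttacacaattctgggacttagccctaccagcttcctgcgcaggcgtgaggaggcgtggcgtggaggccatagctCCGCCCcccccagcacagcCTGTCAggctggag
Ebp: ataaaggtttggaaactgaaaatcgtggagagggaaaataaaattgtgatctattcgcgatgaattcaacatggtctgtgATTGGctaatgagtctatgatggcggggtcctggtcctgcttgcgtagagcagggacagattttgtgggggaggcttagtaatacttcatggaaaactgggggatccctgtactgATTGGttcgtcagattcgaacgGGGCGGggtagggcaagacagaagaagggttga
SREBP factors are known to act with NF-Y and Sp1 at such promoters. The sterol regulatory element letters were in 1 of 25 members and in 1.05% of all windows, the NF-Y box in 19 of 25 members and 33.8% of windows, the Sp1 box in 20 of 25 members and 32.7% of windows, and the E-box CACGTG in 4 members (Dhcr7, Hsd17b7, Insig1 and Sc5d) and 6.02% of windows. NF-Y and Sp1 boxes were present in members on both sides of the expression results, for example in Cyp51 and Msmo1, whose groups overlapped. No window was used for Fdps, Fdft1, Sqle, Stard4, Scd1, Scd2 and Fads1.

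At the squalene step, Sqle came nearest to a call in the sterol branch. It encodes squalene epoxidase, a rate-limiting enzyme of the pathway, and was at 62.9, 83.7 and 87.7 CPM in Meis1-OE and 43.7, 43.6 and 58.5 CPM in YFP-CTRL. The groups did not overlap, and the mean was 78.1 ± 13.3 against 48.6 ± 8.59 CPM (SD, n = 3). The log2 fold change of 0.68 ± 0.18 (SE) had an adjusted p of 0.0661 by edgeR, 0.0296 by edgeR scaled to library totals and 0.0193 by DESeq2. Fdft1, squalene synthase, was at 13.7, 17.9 and 17.7 CPM against 4.95, 7.16 and 14.7 CPM (0.88 ± 0.37, adjusted p = 0.190), with control library C above Meis1-OE library A. Lss, which closes squalene epoxide into lanosterol, was at 14.8, 17.6 and 19.9 CPM against 12.3, 9.02 and 15 CPM (0.53 ± 0.21, adjusted p = 0.173).

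The enzymes that turn lanosterol into cholesterol were divided. Ebp, a sterol isomerase, was at 8.58, 10.7 and 10.2 CPM against 3.74, 4.98 and 7.79 CPM, without overlap (log2 fold change 0.83 ± 0.27, SE, adjusted p = 0.112 by edgeR and 0.0467 by DESeq2). Dhcr7, the reductase of the last step of 1 route to cholesterol, was at 11.7, 15.8 and 17.7 CPM against 4.86, 5.27 and 11.9 CPM (1.03 ± 0.36, adjusted p = 0.131 by edgeR and 0.0426 by DESeq2). Nsdhl, a dehydrogenase of the demethylation steps, was at 10.3, 13.0 and 13.9 CPM against 5.0, 6.50 and 10.6 CPM (0.75 ± 0.28, adjusted p = 0.148). In Dhcr7 and Nsdhl the highest control, library C, was just above the lowest Meis1-OE library.

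The remaining steps had small fold changes, and in each the groups overlapped. Cyp51, the lanosterol demethylase, was at 15.8, 24.2 and 24.4 CPM against a narrow 19.6, 20.5 and 20.2 CPM (log2 fold change 0.10 ± 0.18, SE). Msmo1, the methylsterol oxidase, was at 16.1, 25.9 and 27.3 CPM against 22.4, 29.4 and 19.7 CPM (-0.05 ± 0.24), the 1 negative value of the branch, which turned to 0.09 when libraries were scaled to their totals. Sc5d, a sterol desaturase, was at 13.0 to 18.9 against 15.1 to 16.2 CPM (0.10 ± 0.17). Hsd17b7, a ketoreductase of the demethylation steps, was at 14.4 to 19.5 against 11.8 to 18.6 CPM (0.15 ± 0.20), and Tm7sf2, a sterol reductase, at 29.0 to 39.3 against 26.6 to 29.9 CPM (0.28 ± 0.14).

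Of the regulators and carriers, Stard4, a soluble protein that moves cholesterol between membranes, had the largest sterol branch fold change. It was at 47.4, 67.5 and 75.9 CPM in Meis1-OE and 10.5, 15.1 and 46.4 CPM in YFP-CTRL. The lowest Meis1-OE library was only 1.02 times the highest control. The log2 fold change was 1.40 ± 0.53 (SE, adjusted p = 0.148 by edgeR and 0.0312 by DESeq2), and 2.29 without control library C (adjusted p = 0.00175 by edgeR).

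Insig1, which holds SREBP factors in the endoplasmic reticulum and is itself one of their targets, was at 35.4, 60.5 and 67.7 CPM against 27.9, 21.9 and 37.7 CPM. Meis1-OE library A lay below the highest control, and B and C lay above all controls (log2 fold change 0.90 ± 0.29, SE, adjusted p = 0.104 by edgeR and 0.0285 by DESeq2). Srebf2, which encodes the SREBP factor tied mainly to sterol genes, was at 95.7, 116 and 125 CPM against 58.4, 68.8 and 127 CPM (0.41 ± 0.29, adjusted p = 0.403).

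The spread among controls in these genes was mostly the distance of library C from A and B. Library C was the highest control for 17 of 21 sterol genes and 9 of 11 fatty acid genes, against 39.0% of all genes tested. The median ratio to the mean of controls A and B was 1.73 in control library C for the sterol branch, between 1.42 in Meis1-OE library A and 1.83 and 1.96 in B and C. For the fatty acid branch it was 1.40 in control library C and 1.31, 1.39 and 1.44 in Meis1-OE. For the S and G2/M genes it was 2.90 in control library C and 3.28, 3.28 and 3.35 in Meis1-OE. For all genes it was 0.998 to 1.02 in the same 4 libraries. TMM scaling holds that median near 1, so it does not show how widely library C differed. Taken as a ratio, control library C lay nearer the Meis1-OE mean than the mean of A and B for 61.3% of all genes. This held for 18 of 21 sterol genes, 6 of 11 fatty acid genes and 15 of 15 S and G2/M genes. By these medians, cell division genes and sterol genes were thus high in the same 4 libraries of 6. Not every sterol gene followed this. For Msmo1, Tm7sf2, Cyp51, Pmvk and Sc5d, control library C was at 0.76 to 1.07 times the mean of A and B. The part of cell division in the sterol gene levels was not tested.

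**Figure D3:**
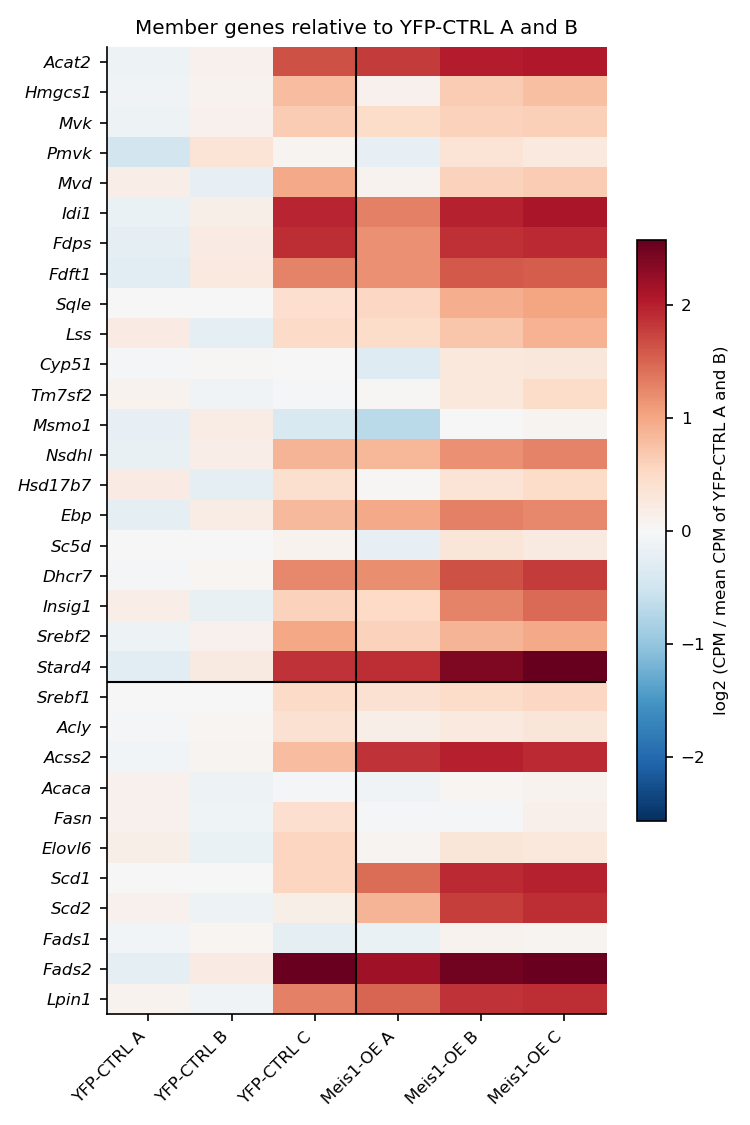
Log2 ratio of each member's CPM to its mean in YFP-CTRL libraries A and B (colour scale, log2 units; red, higher; blue, lower), one row per gene and one column per library. YFP-CTRL library C resembles the Meis1-OE libraries for Idi1, Fdps, Fads2 and Acat2, and resembles the other controls for Scd2.

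Without control library C, edgeR called 13 of 21 sterol genes and 6 of 11 fatty acid genes higher. The same fit called 16.5% of all genes higher. The sterol genes were Acat2, Mvk, Idi1, Fdps, Fdft1, Sqle, Lss, Nsdhl, Ebp, Dhcr7, Insig1, Srebf2 and Stard4, and the fatty acid genes were Srebf1, Acss2, Scd1, Scd2, Fads2 and Lpin1. Of the 15 S and G2/M genes, 0 were called by edgeR with all libraries and 1 by DESeq2, 2 had an unadjusted p under 0.05, and 14 were called higher without control library C. With all 6 libraries, DESeq2 called 6 sterol genes (Acat2, Sqle, Ebp, Dhcr7, Insig1 and Stard4) and 4 fatty acid genes (Acss2, Scd1, Scd2 and Lpin1) higher. Library C cannot be set aside on its labels, which give it the same treatment as the other controls.

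Measured against control library C alone, the members divide differently. The mean of the Meis1-OE libraries was 2.71 times control library C for Scd2 and 2.38 times for Scd1, and 0.917 times for Idi1. All 3 Meis1-OE libraries exceeded control library C in 5 of 21 sterol genes and 5 of 11 fatty acid genes, against 32.5% of all genes. These ratios have no replicate check, since they rest on 1 control library.

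The Meis1-OE libraries also differed among themselves. Library A was the lowest of the 3 for 21 of 21 sterol genes and 10 of 11 fatty acid genes, against 48.4% of all genes. Outside the members it was the lowest for 6 of 6 endothelial markers and 8 of 15 S and G2/M genes. In the lists described below this held for 10 of 12 fatty acid supply, 5 of 6 SREBP processing and 5 of 6 other sterol and isoprenoid genes. It held for 6 of 9 oxidation, 2 of 5 sterol export and 2 of 6 uptake genes. The median ratio of the mean of B and C to A was 1.41 for the sterol branch, 1.16 for the fatty acid branch and 1.03 for all genes. Among the genes with the widest gap were Scd2, with a ratio of 1.97, and Insig1, with 1.81. The S and G2/M genes showed no such gap, as given by their library ratios above, and Meis1 was at 2961 CPM in library A and 3477 and 3223 CPM in B and C.

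Levels can be compared between genes per kilobase of the longest coding transcript, which was known for 31 of the 32 members. In YFP-CTRL the order was led by Fasn at 57.3 ± 11.2 CPM per kb (SD, n = 3), Acly at 45.1 ± 7.26, Fads1 at 34.5 ± 3.41 and Scd2 at 32.5 ± 3.19, and no neighbours among these 4 were further apart than their SDs reach. In Meis1-OE the order was led by Scd2 at 94.0 ± 32.3 CPM per kb, then Fasn at 51.9 ± 3.57, Acly at 48.3 ± 2.69, Fads1 at 36.3 ± 3.49 and Scd1 at 32.3 ± 6.16. Within 1 SD, Fasn and Acly overlapped there, and so did Fads1 and Scd1, while Scd2 and Fasn did not, nor did Acly and Fads1. Scd1 in YFP-CTRL was at 10.7 ± 2.47 CPM per kb, and Acss2 was last in both orders at 0.636 ± 0.0322 in Meis1-OE and 0.210 ± 0.0724 in YFP-CTRL. Of the sterol branch genes with a length, Sqle led in Meis1-OE with 28.3 ± 4.82 CPM per kb, against 17.6 ± 3.12 in YFP-CTRL.

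Other genes around the pathway were followed in 6 lists. Of 5 tested genes of sterol export and the LXR receptors, 1 (20.0%) was called higher, against 4.14% of all genes, and 0 lower. This was Abca1, at chr4:53030789-53159988, the transporter that passes cholesterol to lipid-poor apolipoprotein. Abca1 was at 28.8, 65.7 and 75.0 CPM in Meis1-OE and 16.0, 14.7 and 12.4 CPM in YFP-CTRL, without overlap and again with Meis1-OE library A lowest. Its log2 fold change was 1.98 ± 0.34 (SE, adjusted p = 0.0203 by edgeR), and the call was lost without Meis1-OE library B (0.0975) or C (0.0850) or YFP-CTRL library B (0.0950), or with the column letter as a replicate block (0.0506). Unlike most sterol branch genes, Abca1 was lowest in control library C. Abcg1 of the same list went the other way, at 9.95, 9.36 and 10.2 CPM in Meis1-OE and 12.8, 27.3 and 24.7 CPM in YFP-CTRL, without overlap. Its log2 fold change of -1.13 ± 0.27 (SE) had an adjusted p of 0.0519 by edgeR and 0.00245 by DESeq2. DESeq2 thus called 1 gene of this list higher and 1 lower.

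Of 12 tested genes of fatty acid supply, activation and esterification, 1 (8.33%) was called higher and 0 lower. This was Acacb, at chr5:114146321-114250761, the acetyl-CoA carboxylase whose malonyl-CoA limits the entry of fatty acids into mitochondria. Acacb was at 17.6, 19.3 and 20.6 CPM in Meis1-OE and 5.33, 6.62 and 10.2 CPM in YFP-CTRL, without overlap. Its log2 fold change was 1.37 ± 0.24 (SE, adjusted p = 0.0221 by edgeR), and the call was lost without any 1 of the Meis1-OE libraries (0.0711 to 0.113) or YFP-CTRL library B (0.102). The paralog Acaca, among the members, had a log2 fold change of 0.03.

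The 4 other lists had 0 genes called in either direction by edgeR. They were SREBP processing and regulation (6 tested, 1 higher and 1 lower at an unadjusted p under 0.05, 0 called by DESeq2), other sterol and isoprenoid enzymes (6 tested, 1 higher, 0 by DESeq2), fatty acid uptake (6 tested, 1 lower, 1 lower by DESeq2) and fatty acid oxidation (9 tested, 3 higher, 2 higher by DESeq2, of which 1 had not passed edgeR's filter and is outside the 9). Their median log2 fold changes were 0.15, 0.27, -0.13 and 0.20 in the same order. Cpt1a of oxidation was higher without overlap, at 171, 160 and 161 CPM in Meis1-OE and 73.4, 77.0 and 122 CPM in YFP-CTRL. Its log2 fold change of 0.85 ± 0.20 (SE) had an adjusted p of 0.0504 by edgeR and 0.00486 by DESeq2. Fabp5 of uptake was lower without overlap, with a log2 fold change of -0.82 ± 0.22 (SE). Its adjusted p was 0.0674 by edgeR and 0.0126 by DESeq2. Over all 16065 genes tested, 4205 had an unadjusted p under 0.05 by edgeR, in either direction. Without control library C, edgeR tested 16443 genes, of which 16.5% were called higher (2717) and 2498 were called lower. Among these were 1 higher and 1 lower in SREBP processing and 3 higher among the other sterol and isoprenoid enzymes. That fit also called 1 lower in uptake and 2 higher in oxidation. In the same fit edgeR called 2 higher and 1 lower in sterol export and 3 higher and 3 lower in fatty acid supply.

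**Figure D4:**
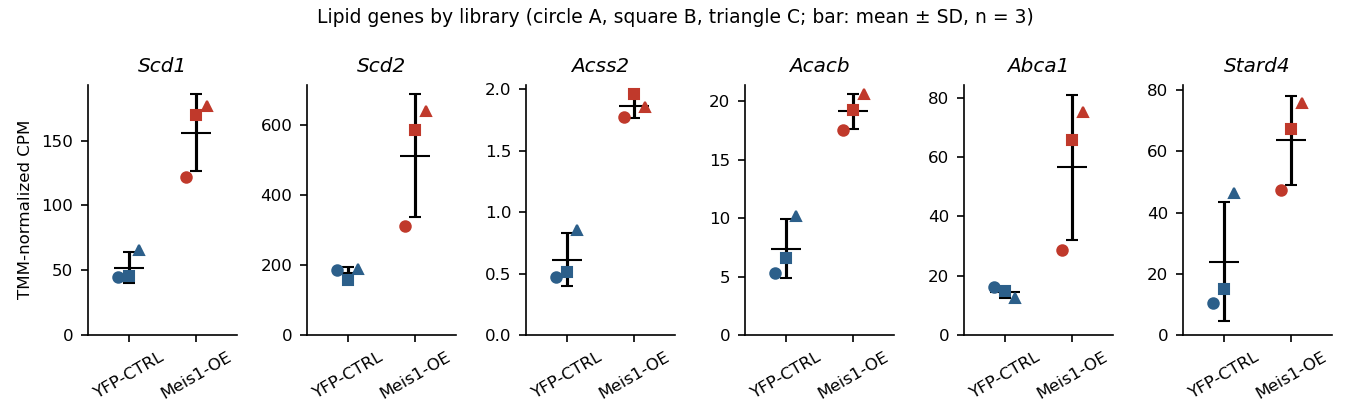
TMM-normalized CPM of Scd1, Scd2, Acss2, Acacb, Abca1 and Stard4 by condition (points, libraries A, B and C; bars, mean ± SD, n = 3; y axes start at 0). The first 5 are the called genes, with all Meis1-OE points above the YFP-CTRL points, and in Stard4 YFP-CTRL library C reaches Meis1-OE library A.

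Some counts depend on how reads were assigned. Estimated counts differed from a whole number by over 0.01 in at least 1 library for 9 members and in all 6 libraries for Acat2, Sqle, Tm7sf2 and Acaca. Fdft1, Tm7sf2, Srebf1 and Acaca overlap another protein-coding gene with counts (Ctsb, Vps51, Rai1 and Tada2a), and the use of strand in counting is not given in the sources used here.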

How the data were processed

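Ribodepleted RNA-seq of 3 Meis1-OE and 3 YFP-CTRL EC cultures was analysed. The authors deposited 1 table of estimated counts by gene symbol, which were raw. The genome build in the submitters' processing notes is mm10, and the aligner, counting tool and annotation are not given in the sources used here. Conditions came from the sample labels. Replicates are numbered in the labels and lettered in the table, and nothing ties a letter to a number or to a shared batch, so libraries were not paired.

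Counts were rounded and tested in R 4.3.3 with edgeR 4.0.16 (TMM scaling, filterByExpr, which kept 16065 genes, quasi-likelihood test, Benjamini-Hochberg adjustment over all genes tested, threshold 0.05). Standard errors were derived from the F statistic. A two-sided exact permutation test of 3 against 3 libraries cannot go below 0.1, so no permutation test was run. P-values come from the edgeR or DESeq2 model of each gene. They set the difference between groups against the modelled spread between these libraries. Alternatives were DESeq2 1.42.0, its size factors, library totals, no filter, a minimum of 10 counts in every library, a robust fit, the column letter as a replicate block, a threshold of 0.1 and each library left out. The edgeR and DESeq2 steps were tested on simulated data. No molecular identifiers are named in the sources used here, and reads can be copies of 1 molecule. Reads of the vector and of endogenous Meis1 were not separated.

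Members and gene lists were chosen with earlier results of these data known. The genes named are all 32 members, Meis1 and, from each other list, up to 4 called genes with a mean of at least 5 CPM. Tek, Kdr, Cdh5, Plin4, Des, Cidec, Lep, Acta2, Lum, Pdgfra, C1qa, C1qb, Tyrobp, Abcg1, Cpt1a and Fabp5 were named after their values were seen. Promoter sequences and positions came from RefSeq on GRCm38.p6, which is the build mm10. Upstream sequences were found for 25 members, and all of the windows were searched on both strands over 250 bases before the start. Transcript lengths came from an older annotation and were used without coordinates. Python 3.11.15 and matplotlib 3.10.9 made the figures.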

Additional observations from a re-analysis of the deposited data

How the results depend on the processing

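Against 0 sterol genes called higher, 1 was called with library totals, 1 at a threshold of 0.1 and 6 with DESeq2's test, and 0 to 13 when each library was left out. The 3 fatty acid genes called became 0 to 6 over the left-out libraries. Over all genes, 665 called higher and 438 lower became 1048 and 180 with library totals, 1124 and 1115 with DESeq2, 1138 and 1073 at a threshold of 0.1, and 115 to 2717 and 16 to 2498 over the left-out libraries. With the column letter as a replicate block, 3 fatty acid and 0 sterol genes were called, and 544 genes higher and 189 lower in all, while the call of Abca1 was lost. Deviations of same-lettered libraries from their group means correlated at 0.245 (A), 0.190 (B) and 0.0809 (C), and Meis1-OE library C correlated best with YFP-CTRL library B (0.249). Deviations from a mean of 3 libraries are bound to each other, so these values cannot decide whether libraries of the same letter shared a batch. The median log2 fold change ran over the left-out libraries from 0.36 to 0.81 in the sterol branch and from 0.19 to 0.45 in the fatty acid branch. The high counts of members came without YFP-CTRL library C, and the 0 fatty acid genes without Meis1-OE library B, Meis1-OE library C or YFP-CTRL library B. Library totals moved the median of all genes from 0.01 to 0.15 on the log2 scale.

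Signs turned only in members with fold changes near 0. Msmo1 was at 0.090 with library totals. Over the left-out libraries, the lowest and highest log2 fold changes were -0.082 and 0.33 for Pmvk, -0.16 and 0.46 for Mvd, -0.0035 and 0.28 for Cyp51, -0.18 and 0.16 for Msmo1, -0.0061 and 0.29 for Hsd17b7, -0.0046 and 0.24 for Sc5d, -0.014 and 0.090 for Acaca, -0.25 and 0.0081 for Fasn, -0.13 and 0.21 for Elovl6, and -0.011 and 0.15 for Fads1. Of 448 member values under alternatives, 394 kept their direction and side of the threshold, 26 newly passed it, 10 no longer passed it and 18 changed sign. The design had 3 libraries a side, and the biological coefficient of variation was 0.233.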
